A study of Ovis aries with 10 samples.

Results

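The genes that set how much cortisol acts inside a cell were examined in left ventricular free wall from late-gestation fetal sheep whose mothers had received cortisol or vehicle. They comprised 6 genes: the glucocorticoid receptor NR3C1, the mineralocorticoid receptor NR3C2, the 11-beta-hydroxysteroid dehydrogenases HSD11B1 and HSD11B2, the receptor chaperone HSP90AA1 and the efflux pump ABCB1. Every probe that the array files assign to 1 of these genes by name, accession or description was taken. HSD11B2 is written HSD11K there and NR3C2 carries an older locus name. This gave 10 probes of the 15008 on the array, and 6 of the 1020 genes that could be named. NR3C1 and HSP90AA1 had 1 probe each and the other 4 genes had 2 probes each.

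The cortisol group was 5 fetuses of ewes infused with 1 mg/kg/day of cortisol (Solu-Cortef) from about day 115 of pregnancy. The control group was 5 fetuses of ewes infused with vehicle over the same period. All were singletons, and tissue was collected at 139 to 144 days, as soon as possible after labour began. Each treatment was given to 7 ewes, and 1 Cy3 array was read per fetus. The comparison addresses what about 25 days of raised maternal cortisol does in the fetal heart.

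Cortisol reaching a cell can bind the glucocorticoid receptor or the mineralocorticoid receptor, which bind it with lower and higher affinity respectively. HSD11B2 converts cortisol to cortisone, which does not activate these receptors, and HSD11B1 mainly regenerates cortisol from cortisone. HSP90 proteins hold the unliganded receptors in a form that can bind steroid, and ABCB1 (P-glycoprotein) pumps cortisol among many other substrates out of cells. In the heart the mineralocorticoid receptor is known to be occupied largely by glucocorticoids, because HSD11B2 is low there.

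The probes are 60 bases long and are shown because the reading of each gene rests on 1 or 2 short stretches of its transcript. Positions are those that the array files give in a transcript record, 5′ to 3′, and no genome was used here. For NR3C2, HSD11B1 and HSD11B2 only a 30-base stretch is shown. Capitals mark the 40 bases shared by the ABCB1 probes and, in the HSD11B2 probes, the letters AATAAA.
NR3C1, bases 2259 to 2318: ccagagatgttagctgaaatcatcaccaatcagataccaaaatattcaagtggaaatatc
NR3C2 probe 1, first 30 bases from 1003: cttagaaacatgttcctgttcctctggata
NR3C2 probe 2, first 30 bases from 1089: ttaactatgccatgtcgtttctgggatcgt
HSD11B1 probe 1, first 30 bases from 1151: ctgcgaaattgacagtatccatagatataa
HSD11B1 probe 2, first 30 bases from 1273: atgtcgcattggctttaacttcagttcatt
HSD11B2 probe 1, last 30 bases to 1829: tgacactttttgAATAAAgataaattttta
HSD11B2 probe 2, last 30 bases to 1830: gacactttttgAATAAAgataaatttttat
HSP90AA1, bases 1686 to 1745: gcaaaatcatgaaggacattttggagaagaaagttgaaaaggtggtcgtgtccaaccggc
ABCB1 probe 1, bases 3025 to 3084: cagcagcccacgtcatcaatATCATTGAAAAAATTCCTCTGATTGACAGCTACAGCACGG
ABCB1 probe 2, bases 3045 to 3104: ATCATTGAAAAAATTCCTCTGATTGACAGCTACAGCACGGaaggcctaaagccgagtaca

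The HSD11B2 probes are the same stretch shifted by 1 base and share 59 of 60 bases, so they are close to a repeat measurement of 1 target. The ABCB1 probes share 40 bases. The NR3C2 probes and the HSD11B1 probes share no stretch and read separate parts of their transcripts. No probe named for another gene shared a run of 15 bases with any of the 10. AATAAA, the usual polyadenylation signal, lies in both HSD11B2 probes, and 5.63% of all 15008 probes hold it on the printed strand (9.14% on either strand).

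The 10 arrays came from 2 slides. Slide 1 held 3 arrays of each group and slide 2 held 2 of each. The 75th percentile of spot intensity ran from 177 to 286 scanner units, and 63.5% to 73.2% of gene spots per array were well above background. No spot was saturated. On cortisol replicate 4, a rectangle of 1752 gene spots (11.5% of its gene spots) had lost signal: gene probes lay at a median of -1.19 against the other arrays inside it and 0.14 outside it, and spike-in RNA at -0.72 and -0.13 (all log2). Probes printed at least 5 times varied by a standard deviation of 0.060 to 0.075 log2 on the other 9 arrays and by 0.22 on cortisol replicate 4. The NR3C1 probe and HSD11B1 probe 2 lie in this rectangle, and their values on that array are left out below unless stated. The description of 9 samples names the biceps femoris, while every title, source and tissue label names the left ventricle. TPM1, CRYAB and MYH7, genes of heart and slow muscle, lay above at least 96.9% of probes on every array, and the fast skeletal MYH1 and MYH2 and the myogenic factor MYF5 at or below the 26.7th percentile, none of the 3 reaching the detection level needed for a test. The fast skeletal troponin TNNC2 (58.6th to 68.6th percentile) and the myogenic factor MYOD1 (21.1st to 34.3rd percentile) did reach it. So did PYGM, the other skeletal muscle marker tested, which was bright, at a mean of 2.87 log2 above the 75th percentile of the array.

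Levels below are log2 of the processed intensity relative to the 75th percentile of the same array, so 0 is that percentile itself. They compare arrays for 1 probe and do not rank genes. Each difference is the cortisol mean minus the control mean, given with limma's standard error and 95% confidence interval. All 10 probes were well above background on at least 5 arrays and were tested among 10211 probes. None passed an adjusted p of 0.05 in limma, nor did any other probe (0 of 10211, 0.0%), and with the rectangle kept the count was also 0 of 10211 (0.0%). Before adjustment 361 probes (3.54%) had a p under 0.05 in limma, and 0 of the 10 were among them. In 7 of the 10 the cortisol mean was higher and in 3 lower, with a median difference of 0.12 against 0.01 over all probes tested, of which 52.4% were higher. This tally counts overlapping probes of a gene separately and depends on the processing. With the rectangle kept NR3C1 and HSD11B1 probe 2 turned to -0.58 and -0.16. Without values that Feature Extraction substitutes for undetected spots, the ABCB1 probes turned to -0.42 and -0.43. With normexp background correction the 3 lower probes turned to 0.15, 0.12 and 0.15. The control and cortisol values overlapped for all 10 probes. Of 8353 probes with a value on every array, 49 (0.587%) had groups that did not overlap. A change in RNA per cell and a change in the number of cells of a type cannot be told apart in tissue RNA.

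**Figure D1:**
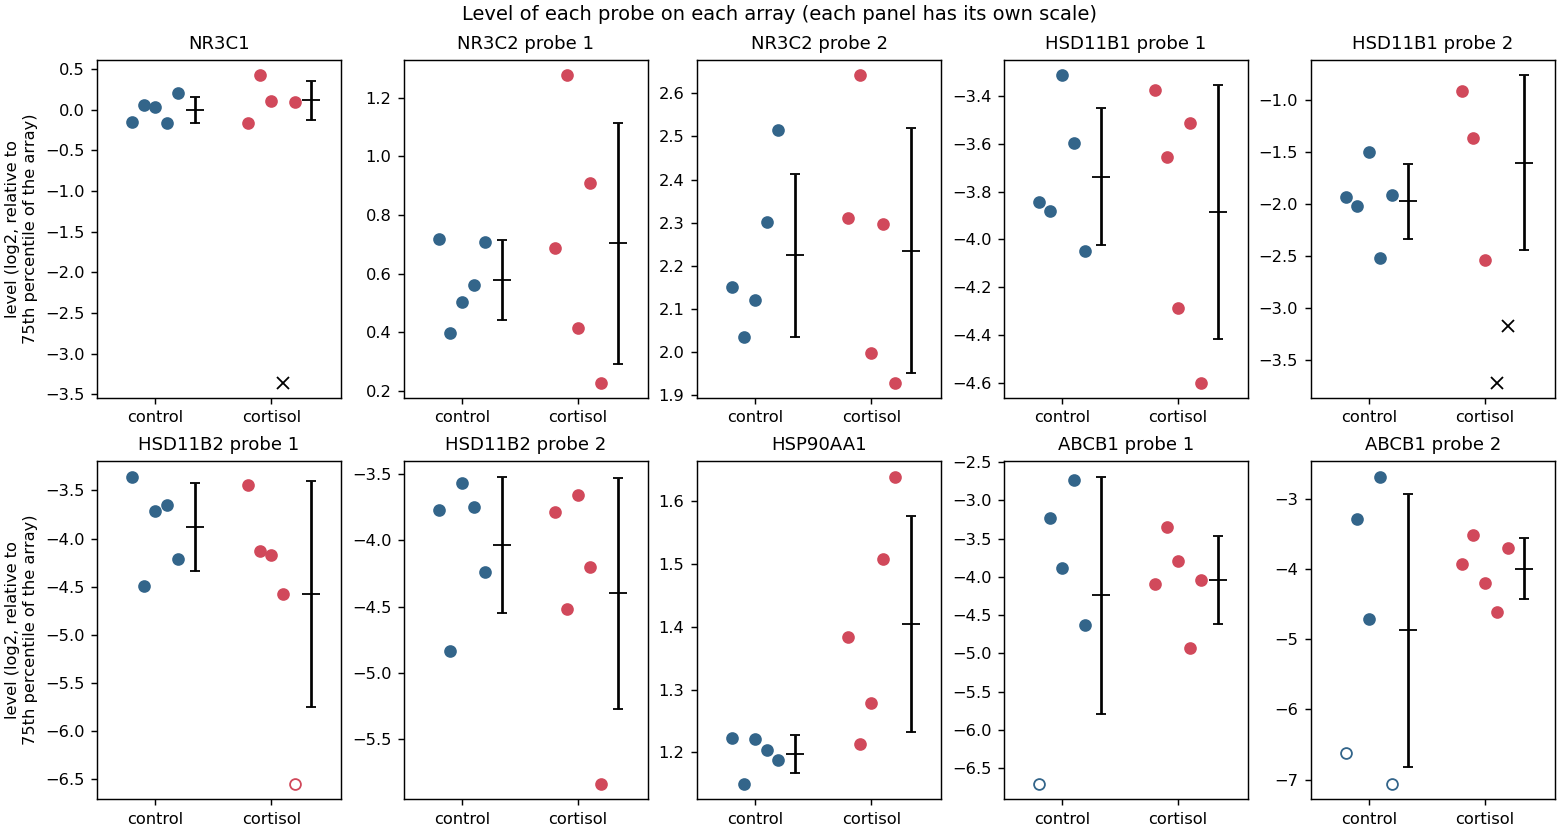
Level of each of the 10 probes on each array (vertical axis, log2 relative to the array's 75th percentile, own scale in each panel), control in blue and cortisol in red, replicates 1 to 5 from left to right. Bars are mean ± SD of the values used; open circles are substitute values given by Feature Extraction, and crosses are values left out (rectangle of lost signal, or spot not found). HSP90AA1 has 4 of 5 cortisol values above every control value, and the other panels show wider overlap.

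The glucocorticoid receptor was measured well and differed little between groups. NR3C1 stood at -0.15, 0.06, 0.04, -0.16 and 0.21 in control replicates 1 to 5. In cortisol replicates 1, 2, 3 and 5 it stood at -0.16, 0.42, 0.10 and 0.10. Cortisol replicate 2 was the highest of the 9 arrays, cortisol replicate 1 was level with the lowest control, and the other cortisol values lay within the control range. The means were -0.0016 ± 0.16 (SD, n = 5) and 0.12 ± 0.24 (SD, n = 4). The difference was 0.12 ± 0.14 (SE), a ratio of 1.08, and its interval of -0.19 to 0.43 spans ratios from 0.88 to 1.34 (limma, adjusted p = 0.998).

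On cortisol replicate 4 the NR3C1 spot read -3.36, at 17.3 scanner units against 175 to 299 on the other arrays, and was not well above background. The bright spots within 8 rows and 4 columns of it were at a median of -3.86 against the other arrays, while on the other 9 arrays these neighbours lay between -0.11 and 0.12. With this value kept, the cortisol mean was -0.58 ± 1.57 (SD, n = 5) and the difference -0.58 ± 0.61 (SE; limma, adjusted p = 0.989). The direction of the NR3C1 difference thus turned on 1 spot.

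**Figure D2:**
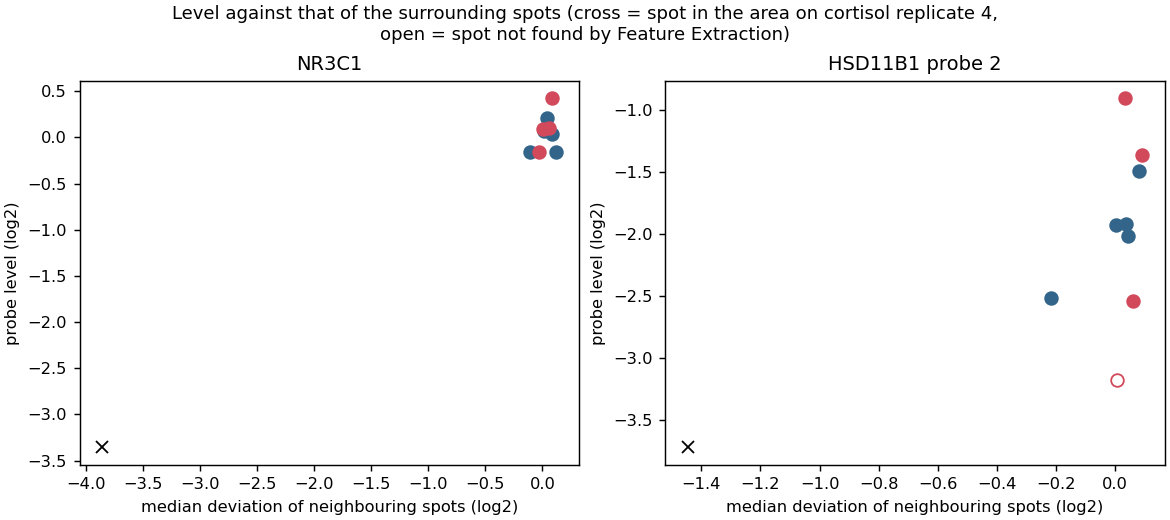
Level of the NR3C1 probe and of HSD11B1 probe 2 on each array (vertical, log2) against the median deviation of the neighbouring bright spots from the other arrays (horizontal, log2), control in blue and cortisol in red. The cross is cortisol replicate 4, with neighbours at -3.86 for NR3C1 and -1.45 for HSD11B1 probe 2, and the open circle is the HSD11B1 spot of cortisol replicate 5 that was not found.

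The mineralocorticoid receptor was bright on both probes and had nearly equal group means. NR3C2 probe 2, the brighter, read 2.15, 2.04, 2.12, 2.30 and 2.51 in the controls and 2.31, 2.64, 2.00, 2.30 and 1.93 with cortisol. The highest and the lowest of the 10 values were both in the cortisol group. The difference was 0.01 ± 0.15 (SE), and its interval of -0.32 to 0.34 covers ratios of 0.80 to 1.27 (limma, adjusted p = 0.9996). Probe 1 read 0.72, 0.40, 0.50, 0.56 and 0.71 in the controls and 0.69, 1.28, 0.42, 0.91 and 0.23 with cortisol. Again cortisol replicate 2 was highest and cortisol replicate 5 lowest. The means of probe 1 were 0.58 ± 0.14 and 0.70 ± 0.41 (SD, n = 5 each), and the difference was 0.13 ± 0.18 (SE; limma, adjusted p = 0.998). Feature Extraction's own error had a median of 10.02% of the intensity for probe 1 and 10.003% for probe 2, with at most 10.04% on any array. Without cortisol replicate 2 the difference of probe 1 was -0.017, and leaving out single arrays moved that of probe 2 between -0.090 and 0.088. Within slide 1 both differences were above 0 (0.25 and 0.21 for probes 1 and 2) and within slide 2 both were below 0 (-0.07 and -0.29). The difference between slides was not called for either probe (limma interaction, adjusted p = 0.956 and 0.941).

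HSD11B1, which regenerates cortisol, was dim on probe 1 and clearly detected on probe 2, and neither difference passed the test. Probe 2 read -1.93, -2.02, -1.50, -2.52 and -1.92 in the controls and -0.91, -1.36 and -2.54 in cortisol replicates 1 to 3. Cortisol replicates 1 and 2 were above every control, and cortisol replicate 3 was below every control. Cortisol replicate 5, at -3.17, was marked as not found and left out. Cortisol replicate 4, at -3.72, lay in the rectangle, where its neighbours were at -1.45. The means were -1.98 ± 0.36 (SD, n = 5) and -1.60 ± 0.84 (SD, n = 3), and the difference was 0.37 ± 0.35 (SE; limma, adjusted p = 0.998). With the rectangle kept it was -0.16 ± 0.50 (SE; limma, adjusted p = 0.991), and with spots marked by the software kept it was -0.02.

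HSD11B1 probe 1 lies outside the rectangle and had all 10 values. It read -3.84, -3.88, -3.31, -3.60 and -4.05 in the controls and -3.38, -3.65, -4.29, -3.51 and -4.60 with cortisol. Cortisol replicates 3 and 5 were the lowest of the 10. Replicate 3 was also the lowest of the probe 2 values used, while the probe 2 spot of replicate 5 was left out. Cortisol replicate 4, which had the lowest reading on probe 2 (-3.72, left out), was not low on probe 1. The means were -3.74 ± 0.29 and -3.89 ± 0.53 (SD, n = 5 each), and the difference was -0.15 ± 0.24 (SE), with an interval of -0.68 to 0.38 (limma, adjusted p = 0.998). The spots held 9.9 to 24.3 scanner units with an error of 13.2% to 27.1% of the intensity, and 9 of 10 were well above background. On cortisol replicate 4 the neighbouring spots of probe 1 were 0.38 high. Without cortisol replicate 5 the difference was 0.03.

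HSD11B2, which inactivates cortisol, was near background on both probes. Its means were lower in the cortisol group, and neither difference passed the test. Probe 2 read -3.77, -4.84, -3.56, -3.75 and -4.24 in the controls. With cortisol it read -3.79, -4.52, -3.65, -4.20 and -5.84. Cortisol replicate 5 was the lowest of the 10, and the other cortisol values lay within the control range. The means were -4.03 ± 0.51 and -4.40 ± 0.88 (SD, n = 5 each), and the difference was -0.37 ± 0.39 (SE), with an interval of -1.23 to 0.49 (limma, adjusted p = 0.998).

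Probe 1 of HSD11B2 gave -3.36, -4.49, -3.71, -3.65 and -4.21 in the controls and -3.45, -4.13, -4.17, -4.58 and -6.55 with cortisol. Its lowest value, again cortisol replicate 5, was a substitute that Feature Extraction writes for a spot not above background, with an error of 98.5% of the intensity. The difference was -0.69 ± 0.48 (SE), with an interval of -1.76 to 0.37 (limma, adjusted p = 0.998), and without cortisol replicate 5 it was -0.20. Feature Extraction called both probes well above background in 4 controls and 3 cortisol fetuses. Probe 1 held 2.58 to 24.5 scanner units after background subtraction. Its mean intensity before subtraction was 40.9 to 59.5, with a local background of 21 to 31. Within slide 1 the differences were -0.06 and 0.07 for probes 1 and 2, and within slide 2, which holds cortisol replicates 4 and 5, they were -1.63, with the substitute value, and -1.03. The difference between slides was not called (limma interaction, adjusted p = 0.932 and 0.943). With normexp background correction both signs turned, to 0.12 and 0.15.

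HSP90AA1, the inducible cytosolic HSP90, had the smallest unadjusted p of the 10 probes, without passing the test. It read 1.22, 1.15, 1.22, 1.20 and 1.19 in the controls, a range of 0.07. With cortisol it read 1.38, 1.21, 1.28, 1.51 and 1.64. All 5 cortisol values exceeded the control mean and 4 of 5 exceeded the highest control, with cortisol replicate 2 inside the control range. The means were 1.197 ± 0.030 and 1.404 ± 0.17 (SD, n = 5 each). The difference was 0.21 ± 0.10 (SE), a ratio of 1.15, with an interval of -0.02 to 0.43, or ratios of 0.99 to 1.35. The unadjusted p in limma was 0.0676, which 5.15% of all probes tested fell below, and the adjusted p was 0.998.

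The control SD of HSP90AA1 was smaller than the error that Feature Extraction gives for each of these spots, 10.01% of the intensity at the median. That error was nearly the same for the bright NR3C2 probes, at 10.02% and 10.003%. It is not a measured scatter of the spot. Repeated spots of a probe had an SD of 0.060 to 0.074 log2 on the control arrays. On cortisol replicate 4, the second highest array, the neighbouring spots were also 0.22 above their level elsewhere. On cortisol replicate 5, the highest, they were 0.08 below it. With the neighbourhood of each spot subtracted the difference was 0.14, without cortisol replicate 5 it was 0.15, and without cortisol replicate 2 it was 0.25. It was 0.09 within slide 1 and 0.38 within slide 2. It stayed above 0 in all 25 alternatives run, from 0.09 to 0.38.

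ABCB1, the efflux pump, was near background, and its level varied widely among the controls, by 1.90 log2 on probe 1 over the 4 controls that had a measured value. Probe 1 read -6.70, -3.23, -3.89, -2.74 and -4.64 in the controls and -4.09, -3.35, -3.80, -4.93 and -4.04 with cortisol. Control replicate 1 was a substitute value. Without it, 4 of 5 cortisol values lay inside the control range, and cortisol replicate 4 below it. The difference was 0.20 ± 0.63 (SE), with an interval of -1.19 to 1.59 (limma, adjusted p = 0.998). Without control replicate 1 it was -0.42.

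Probe 2 of ABCB1 read -6.62, -3.29, -4.72, -2.68 and -7.06 in the controls, where replicates 1 and 5 were substitute values. With cortisol it read -3.93, -3.52, -4.21, -4.61 and -3.70. Feature Extraction called it well above background in 2 controls and 4 cortisol fetuses, at 1.80 to 33.9 scanner units. The difference was 0.88 ± 0.76 (SE), with an interval of -0.79 to 2.55 (limma, adjusted p = 0.998). With the substitute values left out it was -0.43, so the sign on both probes rested on values that are not measurements of the spot. Control replicates 2 and 4 were the highest of the 10 arrays on both probes.

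**Figure D3:**
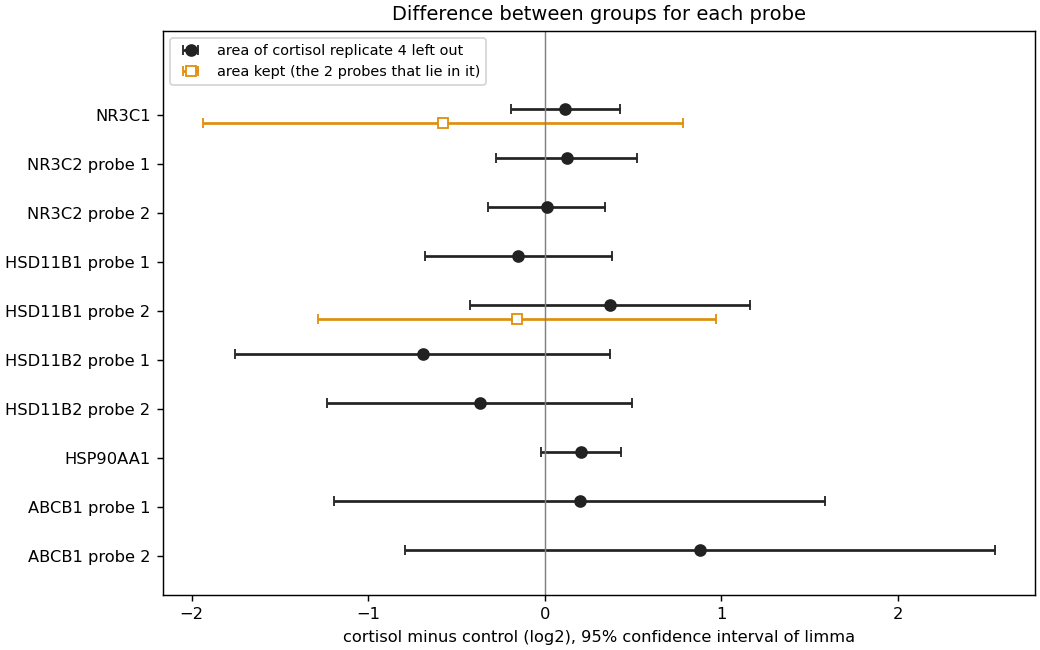
Difference between groups for each probe (horizontal axis, cortisol minus control, log2), with the 95% confidence interval of limma. Filled circles leave out the rectangle on cortisol replicate 4, and open squares keep it for the 2 probes in it, where NR3C1 moves from 0.12 to -0.58 and HSD11B1 probe 2 from 0.37 to -0.16. Every interval includes 0, and among the filled circles those of HSD11B2 and ABCB1 are the widest.

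Ratios within an array compare 2 genes in the same fetus and cancel the scaling of that array. The absolute size of a ratio between probes has no meaning, so only its difference between groups is described. Over the 4 ratios, 11 pairs of probes were compared by exact permutation of the arrays (two-sided), where 5 arrays against 5 can give a p of 0.0079 at the smallest. None passed 0.05 before or after Benjamini-Hochberg adjustment over the 11 pairs. The smallest exact p was 0.127 (adjusted 0.698).

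The receptor ratio moved little. The log2 ratio of NR3C1 to NR3C2 probe 2 was -2.31, -1.97, -2.08, -2.46 and -2.31 in the controls and -2.47, -2.22, -1.89 and -1.83 in cortisol replicates 1, 2, 3 and 5. Cortisol replicate 1 was the lowest and replicates 3 and 5 the highest of the 9. The difference was 0.12 ± 0.17 (SE; exact permutation p = 0.476, adjusted 0.698), and with NR3C2 probe 1 it was 0.04 (exact permutation p = 0.833). With the rectangle kept the first of these was -0.59.

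The enzyme ratio, HSD11B1 to HSD11B2, was higher on average with cortisol for all 4 pairs of probes, by 0.22 to 0.54, with exact permutation p-values from 0.262 to 0.571. These pairs reuse the same probes, and the HSD11B2 probes share 59 of 60 bases, so they are not separate measurements. For the pair with all 10 values and the largest difference, probe 1 of each, the ratio was -0.49, 0.61, 0.40, 0.05 and 0.16 in the controls. With cortisol it was 0.07, 0.48, -0.11, 1.07 and 1.95. The top values were those of cortisol replicates 4 and 5. The latter contains the substitute value of HSD11B2, without which the difference was 0.23. On cortisol replicate 4 the neighbouring spots were at 0.38 for HSD11B1 probe 1 and -0.18 for HSD11B2 probe 1, which the ratio does not cancel. For the brightest pair the cortisol group held 3 arrays, at 2.88, 3.15 and 1.12, against control values of 1.23 to 2.82. That difference was 0.33 ± 0.69 (SE; exact permutation p = 0.571, adjusted 0.698), -0.15 with the rectangle kept and -0.059 without cortisol replicate 2. The pair of HSD11B1 probe 2 with HSD11B2 probe 1 also held 3 cortisol arrays, and differed by 0.04 with the rectangle kept.

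The ratio of HSD11B2 to NR3C2, the enzyme that removes cortisol against the receptor it shields in some tissues, was lower on average with cortisol for all 4 pairs. The differences ran from -0.82 to -0.38 and the exact permutation p-values from 0.127 to 0.405. These pairs also reuse the same probes, and with normexp background correction the brightest pair differed by 0.083. The pairs with HSD11B2 probe 1, at -0.82 and -0.70, contain its substitute value in cortisol replicate 5, and without it they were -0.44 and -0.29. For the brightest pair it was -5.92, -6.87, -5.68, -6.05 and -6.75 in the controls and -6.10, -7.16, -5.65, -6.49 and -7.77 with cortisol, so that cortisol replicates 5 and 2 were lowest and replicate 3 highest of the 10. The ratio of HSP90AA1 to NR3C1 differed by 0.06 ± 0.20 (SE; exact permutation p = 0.738, adjusted 0.812). It was 0.98 to 1.38 in the controls and 0.79 to 1.54 in 4 cortisol fetuses, so both extremes of the 9 arrays were in the cortisol group. Without cortisol replicate 1 or 5 the difference was -0.030.

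**Figure D4:**
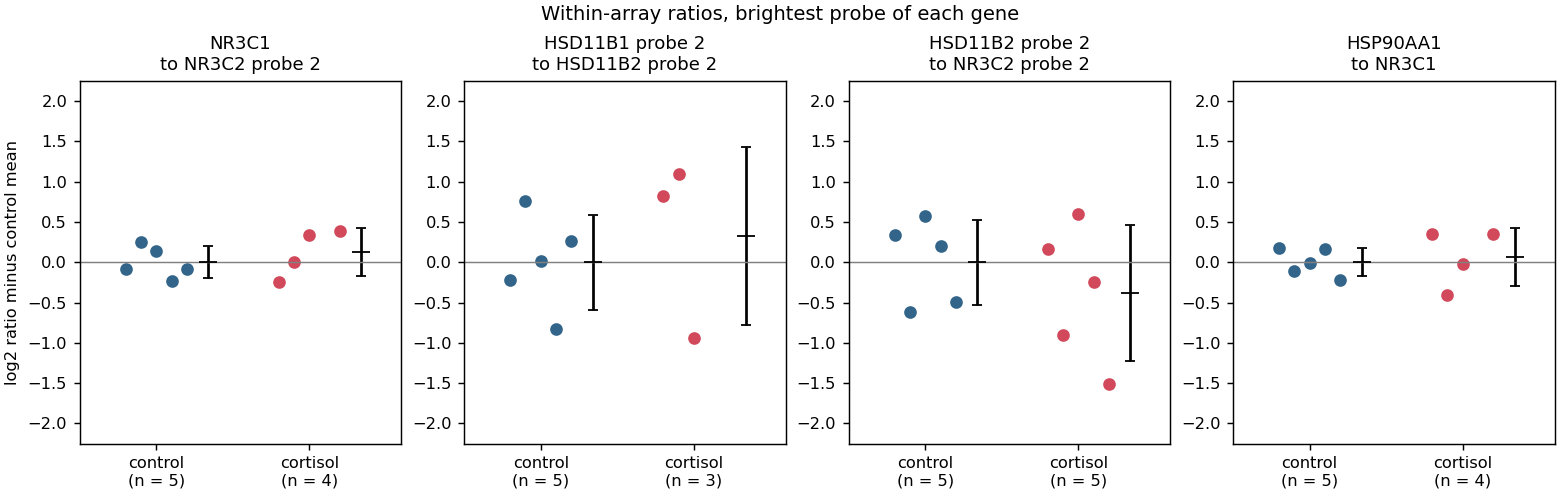
Within-array log2 ratio of the brightest probes of each pair of genes, minus the control mean (vertical axis), for each control (blue) and cortisol (red) fetus with a value for both probes; bars are mean ± SD. The groups overlap in all 4 panels, and the differences of the means are 0.12, 0.33, -0.38 and 0.06 from left to right.

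How far the members varied between fetuses could be set against a second probe of the same gene, read on the same array. These correlations describe points that share array, labelling and scaling. For NR3C2 Pearson's r between the probes was 0.87 over 10 arrays (Spearman's rho 0.81), and 0.67 without the 2 arrays farthest from the median of probe 1. The same cortisol fetuses, 2 and 5, were at the top and bottom of both. For HSD11B1 r was 0.67 over 8 arrays (rho 0.60), and 0.50 without the 2 farthest. For HSD11B2 r was 0.91 over 10 arrays but rho 0.62, and without the 2 farthest arrays r was 0.69. For ABCB1 r was 0.81 (rho 0.82), and 0.67 without the 2 farthest.

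The difference between the probes of 1 gene shows scatter that they do not share, and leaves out any error common to both on an array. The NR3C2 probes and the HSD11B1 probes read separate parts of their transcripts, so their difference need not be measurement scatter alone. For NR3C2 the SD over arrays of probe 1 minus probe 2 was 0.15 log2. For HSD11B2, whose probes differ by a shift of 1 base, it was 0.41, with the lowest difference of -0.71 in cortisol replicate 5 and the highest of 0.42 in control replicate 1. Over the 9 arrays without a substitute value it was 0.35. For HSD11B1 the SD was 0.42 and for ABCB1 0.83, where control replicate 5, a substitute value on probe 2, differed by 2.42 between the probes. Over the 8 arrays without a substitute value the SD for ABCB1 was 0.39.

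**Figure D5:**
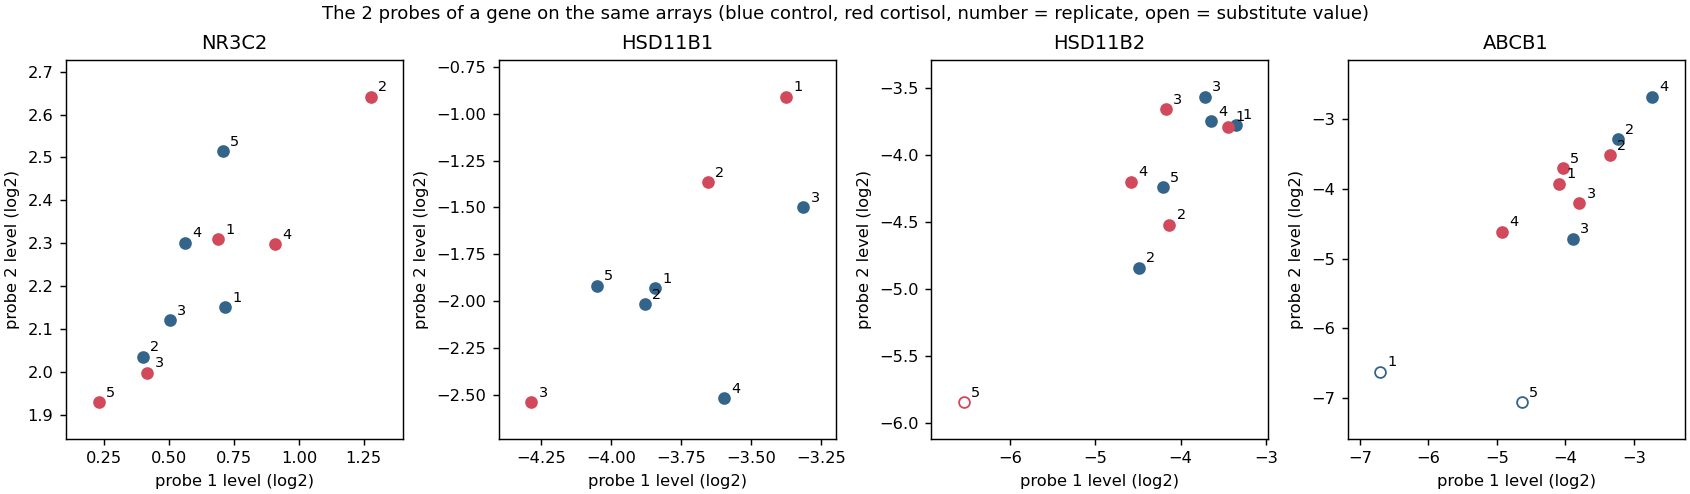
Levels (log2) of the 2 probes of each gene on the same arrays, probe 1 on the horizontal and probe 2 on the vertical axis, control in blue and cortisol in red with the replicate number; open circles contain a substitute value. NR3C2 places cortisol replicate 2 highest and cortisol replicate 5 lowest on both probes (r = 0.87), and in HSD11B2 cortisol replicate 5 stands apart at the bottom left.

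Between different genes, the 15 correlations of the brightest probes over 8 to 10 arrays lay between -0.53 and 0.48. The lowest was HSD11B2 with HSP90AA1 (r = -0.53, rho = 0.02 over 10 arrays; r = -0.09 without the 2 farthest arrays). The highest was HSD11B1 with HSP90AA1 (r = 0.48, rho = 0.24 over 8 arrays). The receptors had r = 0.42 and rho = 0.08 over 9 arrays, and 0.03 without the 2 farthest.

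Other genes of cortisol signalling were taken from 7 lists of 108 genes. Of these, 34 had a named probe and 15 were tested, 7 with a higher and 8 with a lower mean in the cortisol group, and 0 passed in limma. At an unadjusted p under 0.05 there was 1 of 15, where all probes tested gave 3.54%. Among chaperones of steroid receptors 2 of 23 listed genes were tested, both with higher means. The difference was 0.15 ± 0.27 (SE) for HSPA5, the chaperone of the endoplasmic reticulum, and 0.33 ± 0.41 for HSPA1A, the inducible HSP70. The single receptor coregulator tested, PPARGC1A, which drives mitochondrial genes, differed by -0.19 ± 0.23 (SE). Of 3 other nuclear receptors tested, PPARG differed by 0.58 ± 0.41 and the thyroid hormone receptor THRB by 0.20 ± 0.12 (SE).

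The cortisol-synthesis enzyme CYP17A1, the single steroid gene tested, differed by -0.08 ± 0.17 (SE). Of genes of transport and binding, the efflux pump ABCG2 differed by 0.04 ± 0.17 and albumin (ALB), near background, by -0.49 ± 0.86 (SE). Of the stress axis, the precursor of adrenocorticotropin POMC was lower, by -0.54 ± 0.24 (SE), the single gene with an unadjusted p under 0.05 (limma, 0.0465; adjusted p = 0.998), and urocortin (UCN) differed by -0.08 ± 0.22 (SE). Among mineralocorticoid targets and angiotensin receptors, 4 of 14 were tested, 2 with higher and 2 with lower means. ATP1B1, the beta subunit of the sodium pump, was bright and differed by 0.08 ± 0.13 (SE).

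Markers of the cells in a ventricle also held 0 called genes in limma. Of cardiomyocyte markers 1 of 4 tested had a higher mean, with TPM1 at 0.03 ± 0.13 and MB, myoglobin, at -0.12 ± 0.14 (SE). Of endothelial markers 5 of 7 had higher means, with PECAM1 at 0.05 ± 0.17 and KDR at 0.22 ± 0.16 (SE). An unadjusted p under 0.05 in limma was found for 3 of the 7 (3.54% of all probes tested). These 3 were named after their values were seen: TIE1 (-0.53 ± 0.13), TEK (0.58 ± 0.23) and ANGPT2 (0.41 ± 0.16). TIE1 had values on 3 cortisol arrays and TEK on 4 control arrays. TEK and ANGPT2 were dim, at mean levels of -3.58 and -3.78. Fibroblast markers were higher in 1 of 3 (DCN 0.10 ± 0.17, COL3A1 -0.34 ± 0.17), and smooth muscle markers in 2 of 2 (CNN1 1.01 ± 0.50, MYLK 0.32 ± 0.17, SE). Adipocyte markers were higher in 3 of 4 (LPL 0.19 ± 0.17, PLIN1 -0.21 ± 0.14) and immune markers in 0 of 2 (CD3E -0.36 ± 0.46, CD14 -0.0042 ± 0.22). The red cell marker HBB differed by 0.83 ± 0.85, and skeletal muscle markers were higher in 1 of 3 (PYGM -0.27 ± 0.24, TNNC2 0.05 ± 0.15, SE). MYOD1, likewise named after its values were seen, was the third (-0.59 ± 0.17) and had an unadjusted p under 0.05. The part of any cell type in the values of the 6 genes was not tested.

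The named genes whose levels followed each member most closely over the arrays were listed as a description, from 597 to 625 genes with values on at least 8 arrays. NR3C1 was most like TXNDC17 (r = 0.88), SMAD2 (0.88) and PSIP1 (0.85) over 9 arrays. NR3C2 was most like RABL2B (0.80), PHF14 (0.80) and, over 8 arrays, TYMS (0.80). HSD11B1 was most like PPIA (0.91), COX5A (0.88) and POLR2G (0.84) over 8 arrays. HSD11B2 was most like GSTA1-1 (0.87), ART5 (0.86) and SMPD1 (0.80), and without the 2 arrays farthest from its median these were 0.44, 0.42 and 0.58. HSP90AA1 was most like INHBA (0.87), VDUP1 (0.85) and GUCY1B1 (0.80), the last at -0.21 without the 2 farthest arrays. ABCB1 was most like EEF1A1 (0.77), GNG11 (0.74) and C5aR (0.74), with GNG11 at 0.15 without the 2 farthest.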

How the data were processed

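Per the file headers, Feature Extraction 10.1.1.1 gave each spot a deposited processed intensity, background-subtracted and detrended, with its error, beside mean and median intensity and local background. The authors' deposited value table holds log2 values, as a comparison with the scanner values showed: its order equals that of median intensity minus background (Spearman 1.0), array medians are 5.77 to 5.79 and genes are not centred. How it was made is not given in the sources used here.

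The level of a spot was the log2 of its processed intensity over the 75th percentile of that array's gene spots. On cortisol replicate 4 this percentile included the spots of the rectangle. With it taken outside the rectangle, 45.0% of the probes tested were higher, against 52.4% in the main fit. Control spots, spots marked non-uniform, outlying or not found, and rows 64 to 136, columns 28 to 52 of cortisol replicate 4 were left out, and spots of a probe averaged. Probes well above background on at least 5 of 10 arrays entered limma 3.58.1 (R 4.3.3; linear fit with eBayes, two-sided, Benjamini-Hochberg over all 10211). Ratios were tested by exact permutation in Python 3.11.15. The code was tested on simulated data.

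Names, from the files and a RefSeq gene table, covered 1656 of 15008 probes (11.0%). The text names every member probe, the 2 brightest tested genes of each list, and the 3 genes most correlated with each member. The values of 1 gene that this rule names are not reported here. Members and lists were chosen with earlier results of these data known. Alternatives were the rectangle kept, normexp (offset 50), quantile or median scaling, the authors' table, marked spots kept, other filters, replicate or slide as a block, each slide alone, each array left out, and other probes or their mean in ratios. The percentile taken outside the rectangle, the neighbourhood subtracted and substitute values left out were added after seeing the data. The number of arrays limits the precision.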

Additional observations from a re-analysis of the deposited data

Results flagged for a closer look

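With the rectangle of lost signal kept, the NR3C1 level of cortisol replicate 4 was -3.36, far from the other 4 cortisol arrays at -0.16 to 0.42. The SD between repeated spots of a probe was 0.22 log2 on cortisol replicate 4 after the rectangle was left out, against 0.062 to 0.075 on the other cortisol arrays. Both stood apart from their group by Dixon's criterion, which was applied to 47 groups of values and flags about 1 in 20 by chance.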

How the results depend on the processing

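No probe was called in any of the 25 alternatives (0 of the probes tested each time), and no member or ratio passed its test in any of them. For the ratios, each slide alone and the replicate block hold too few arrays for the permutation test to reach 0.05. Those outcomes were fixed in advance and say nothing about the ratios. Of 369 values under alternatives, 31 changed sign. The other 338 include the 25 counts of probes called, which have no direction. The rest of them kept their direction and side of the threshold. With the rectangle kept, the differences were -0.58 (NR3C1), -0.16 (HSD11B1 probe 2), -0.59 (NR3C1 to NR3C2) and -0.15 (HSD11B1 to HSD11B2). With normexp they were 0.15 (HSD11B1 probe 1), 0.12 and 0.15 (HSD11B2 probes 1 and 2) and 0.083 (HSD11B2 to NR3C2). With marked spots kept HSD11B1 probe 2 was -0.020. In the authors' deposited table the HSP90AA1 to NR3C1 ratio was -0.0099. With the percentile outside the rectangle NR3C2 probe 2 was -0.024, and without substitute values ABCB1 was -0.42 and -0.43. Within slide 1, HSD11B2 probe 2 was 0.071, the NR3C1 to NR3C2 ratio -0.074 and the HSP90AA1 to NR3C1 ratio -0.047. Within slide 2, NR3C2 was -0.066 and -0.29 and ABCB1 probe 1 was -0.80, and HSD11B1 probe 2 had no cortisol value. The cause was not tested for any of these. The dim-probe filters do not bear on the ratios.

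Leaving out 1 array at a time gave ranges of -0.090 to 0.088 for NR3C2 probe 2, -0.017 to 0.24 for NR3C2 probe 1, -0.28 to 0.030 for HSD11B1 probe 1, 0.025 to 0.84 for HSD11B1 probe 2, -0.97 to -0.20 and -0.57 to -0.0082 for HSD11B2 probes 1 and 2, 0.15 to 0.25 for HSP90AA1, 0.015 to 0.21 for NR3C1, and -0.42 to 0.57 and 0.33 to 1.43 for ABCB1 probes 1 and 2. For the ratios it gave 0.031 to 0.24 (NR3C1 to NR3C2), -0.059 to 0.96 (HSD11B1 to HSD11B2), -0.63 to -0.096 (HSD11B2 to NR3C2) and -0.030 to 0.22 (HSP90AA1 to NR3C1).

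The number of probes at an unadjusted p under 0.05 moved from 361 to 929 with normexp, 850 of them higher, and to 410 with the percentile outside the rectangle, 132 of them higher. Same-numbered arrays of the groups had correlations of 0.23, -0.01, 0.18, 0.21 and 0.03 between their deviations, and 3 of 5 correlated best with their own number. For those 3 the highest correlation with another number was 0.015, 0.041 and 0.040. Since 2 of the 5 were not above 0.1 and the labels name nothing shared, the numbers were not taken as pairs. Whether same-numbered arrays share a factor was not tested. With the replicate number as a block 0 probes were called (463 unadjusted), HSP90AA1 differed by 0.21 and the HSD11B2 to NR3C2 ratio by -0.38. HSD11B2 probe 1 then differed by -0.69 ± 0.35 (SE; limma, unadjusted p = 0.0903, adjusted 0.971), against an SE of 0.48 without the block. The SE of HSP90AA1 was 0.11 with the block and 0.10 without it. HSD11B1 probe 1, HSD11B2 and ABCB1 sit near background, where changes below the widths given were not detectable.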

Other observations

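Cortisol replicate 5 had the lowest value of the 10 arrays on both NR3C2 probes, both HSD11B2 probes and HSD11B1 probe 1, and the highest HSP90AA1 value. Cortisol replicate 2 had the highest value on NR3C1 and both NR3C2 probes. The HSD11B2 probe 1 value of cortisol replicate 5 was a substitute.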
